A study of Rattus norvegicus with 4 samples.

Results

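The cytosolic ribosomal protein genes encode the proteins of the large and small subunits of the ribosome that translates messengers in the cytoplasm. They were taken from a microarray study of rat ventral prostate as the probe sets that the platform annotation gives to exactly 1 gene, with a symbol of the Rpl or Rps form or Rpsa, Rplp0, Rplp1 or Rplp2. Kinase genes of the Rps6k family and Rpl22 were not included. Each gene was represented by its probe set with the highest mean signal over all arrays. This gave 42 genes of 14218 with a single-symbol probe set, 28 of the large and 14 of the small subunit. All came from male F344 rats, an inbred laboratory strain, aged 6 weeks. One group of 4 rats received 300 mg/kg of PhIP, a carcinogen of the heterocyclic amine class that arises in cooked meat, and the other group of 4 rats did not. All rats were killed 2 days later. Every array holds RNA pooled from 2 rats of a group, so that control 1, control 2, PhIP 1 and PhIP 2 are pools and each group has n = 2. The labels do not say whether the untreated rats received the vehicle.

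The cytosolic ribosome is built from a small subunit, which reads the messenger, and a large subunit, which joins amino acids. Its proteins are made in near-equal amounts, and their messengers are among the most abundant of secreting cells such as those lining the prostate gland. Most of these messengers begin with a run of pyrimidines, the terminal oligopyrimidine (TOP) start, through which the growth-regulating kinase mTOR controls their translation. A complex of Rpl5, Rpl11 and the 5S ribosomal RNA that is not built into ribosomes binds the ubiquitin ligase Mdm2, which ties the ribosome to p53. In the results below, a level is a MAS5 signal, the scanner-derived brightness of a probe set on a linear scale. A fold change is the mean log2(signal + 10) of the PhIP arrays minus that of the control arrays.

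The starts of genes with the highest and lowest fold changes are shown so that the pyrimidine runs of both ends of the set can be compared. RefSeq (assembly GRCr8) gave a promoter for 37 of the 42 genes. Each window runs from 10 bases before to 20 bases after the base at which the annotated transcript begins, on the strand of the gene, and capitals mark runs of at least 5 pyrimidines. Only bright genes, with a mean signal of at least 2500, are shown. The first 4 belong to the large subunit genes with the highest fold changes among bright genes with a promoter.
Rpl27a (chr1:172974563-172974592, + strand): cttggtgggCTCCTCCCTCTTTCTTTTCTg
Rpl19 (chr10:83519054-83519083, + strand): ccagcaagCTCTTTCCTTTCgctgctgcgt
Rpl23 (chr10:83272165-83272194, - strand): CTTCCTTTCTgaCTCTTTCCggacgctcaa
Rpl5 (chr14:1995206-1995235, - strand): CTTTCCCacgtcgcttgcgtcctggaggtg
The next 4 belong to the large subunit genes with the lowest fold changes.
Rpl13a (chr1:104748894-104748923, - strand): TCCTTTCCTaggcggctgccgaagatggcg
Rpl37a (chr9:81748081-81748110, + strand): cccgttgcgTCTCTTCCTCTTCgggcttgg
Rpl21 (chr12:13386134-13386163, - strand): ttccgccggggcagccaTCTTCCaggttgg
Rpl3 (chr7:113507971-113508000, - strand): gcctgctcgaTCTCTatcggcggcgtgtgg
The remaining windows are those of small subunit genes, of which Rps9, Rps23 and Rps3 had high fold changes and Rps3a, Rps15a and Rpsa low ones. The window of Rps15a lies inside the annotated gene (bases 181854396 to 181861330), well downstream of its first base on that strand. Its run in capitals may therefore not belong to the start of the gene, and it cannot be set against the runs of the other genes.
Rps9 (chr1:74430418-74430447, - strand): cggccacgTTTCTCTTTgtcacgggcctga
Rps23 (chr2:23814507-23814536, + strand): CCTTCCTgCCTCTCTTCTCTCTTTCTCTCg
Rps3 (chr1:163195757-163195786, - strand): ttcagcggcgcgcggcagcaagatggcggt
Rps3a (chr2:173827023-173827052, - strand): gtaCTTCCgCCCTTTTggCTCTCagagcgg
Rps15a (chr1:181860265-181860294, - strand): TTTTCTTTCCacagtcaccatggtgcgaat
Rpsa (chr8:128728869-128728898, + strand): ccgcgctaccctggaacgggtccgtacggc

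A start with C followed by at least 4 pyrimidines at the annotated base was found in 11 of the 37 genes (29.7%) against 2.63% of all 33469 promoters in the table. The search depends on the exact base: the run of Rpl27a covers the annotated base, which is a T, and those of Rpl23 lie on both sides of it. The windows of Rps3 and Rpsa, at opposite ends of the small subunit, hold no run in capitals. Both windows lie downstream of the first base of the annotated gene, so that they cannot show whether a run stands there. Rpl19, Rpl37a and Rps3a have the TOP start as searched, although their runs begin before the annotated base, and they too stand at opposite ends. The 9 bright genes with such a start had a median fold change of 0.065 (range −0.25 to 0.19), and the 24 without it had 0.099 (range −0.26 to 0.25), so that the ranges of both sets nearly coincided. Searched on both strands of the 300 bases from 250 before to 50 after the start, the ETS-type sequence CCGGAAG was found in 8 of 37 genes (21.6%, against 8.75% of all promoters). The sequence AAGATGG, which resembles the site of the factor YY1 and can include the start codon, was also found in 8 (21.6%, against 7.01%), and TATAAA in 5 (13.5%, against 14.2%). A match describes letters and not binding, and the counts among the 37 genes rest on the first listed start of each. That start need not be the first base of the gene. Besides Rps15a, the windows of Rpl27a (gene from base 172971957) and Rpl19 (gene from base 83514509) lie well inside the annotated gene. Those of Rps3 (gene to base 163195885), Rpsa (gene from base 128728761) and Rpl3 (gene to base 113508115) also begin downstream of its first base. The same holds for Rps9 (gene to base 74430513), Rpl13a (gene to base 104748975) and, narrowly, Rpl5 (gene to base 1995236).

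Coverage of the ribosome was partial. RefSeq lists 77 genes that follow the same rule, of which 42 had a probe set of their own. A further 27 appeared only in probe sets that the annotation gives to several genes, mostly the gene and its processed copies, and 8 in no named probe set. Ribosomal protein genes have many near-identical copies in the genome, so that signal from a copy cannot be told apart from that of the gene. Of the 42 probe sets, 39 were of the plain kind, and 3 carried a suffix for probes shared between transcripts (Rpl13a and Rps24, _a_at, and Rpsa, _s_at). The 42 genes lie on 15 chromosomes and span a median of 3203 bases, from 934 to 16173.

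The arrays had the same trimmed mean signal, while the median was 25.5 and 27.4 for the control pools and 23.2 and 23.1 for the PhIP pools. Actin probe sets at both ends of the messenger, which show how intact the RNA was, gave a 3′ over 5′ ratio of 5.71 for control 2 against 3.49 to 4.18 for the other pools, and those of Gapdh gave 2.06 against 1.34 to 1.45. Each of the 18 hybridization controls (foreign transcripts spiked into every sample) had a lower mean in PhIP than in control, with an average difference of −0.23 (log2). The luminal identity of the tissue was clear on every array, with Pbsn, which encodes the secreted protein probasin, between 4273 and 4898.1 and Krt8, a luminal keratin, between 1418.6 and 1527.3.

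The ribosomal protein genes were among the brightest on every array. Of the 42, 37 had a mean signal of at least 2500, which placed them above 99.2% of all probe sets. Their median signal was 4418 in control 1, 4371 in control 2, 4436 in PhIP 1 and 4552 in PhIP 2. The brightest was Rps29, a small protein of the small subunit, with 7552.2 and 8288.8 in the control pools against 8564 and 8051.3 in the PhIP pools, groups that overlapped. Next came Rpl26, which sits near the exit of the peptide tunnel, with 6271.9 and 6525.8 against 6961 and 6939.8, and Rps23, a protein of the decoding centre, with 5726.2 and 5848 against 6185.1 and 6339. In both of these genes the PhIP pools lay above the control pools. The spread between pools was small at this brightness: the median absolute log2 difference was 0.060 between the control pools and 0.043 between the PhIP pools, against 0.209 and 0.136 over all tested probe sets. Signals near the top of a scanner's range can be compressed, which would make fold changes too small, and the files give no saturation flags.

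**Figure D1:**
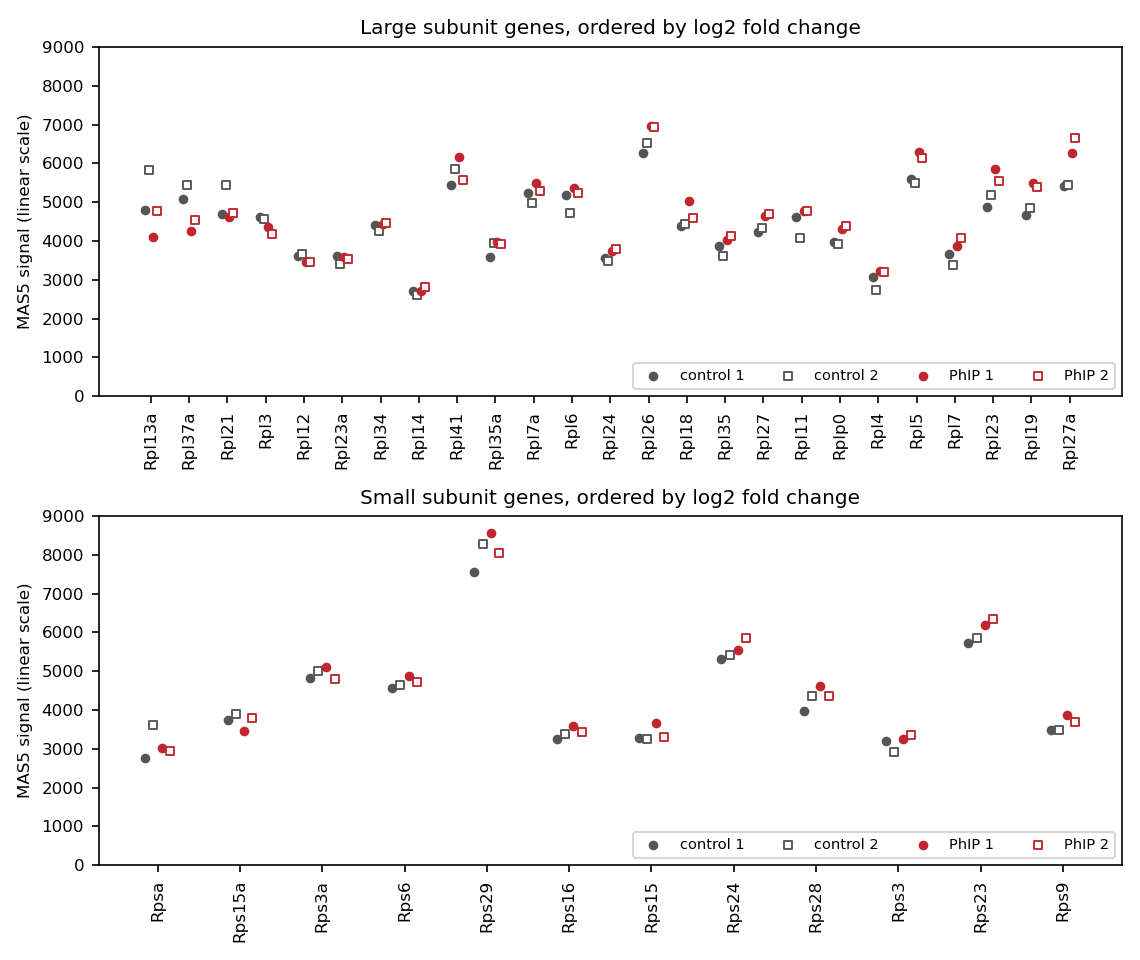
MAS5 signal (linear scale, from 0) of the 37 ribosomal protein genes with a mean signal of at least 2500, one column per gene, split by subunit and ordered from the lowest to the highest fold change. Grey points are the control pools and red points the PhIP pools. Rpl13a and Rpl37a at the left have both PhIP pools below both control pools, and Rpl27a, Rpl19 and Rpl23 at the right have both above.

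The other 5 genes were far dimmer. Rpl39, on the X chromosome, had 91.6 and 54.1 in the control pools against 89.9 and 55.3 in the PhIP pools, and Rps4y2, a homologue of Rps4x, had 63.1 and 60 against 61.9 and 81.3. Both passed the filter on dim probe sets. Rpl28 (9.6 to 11 over the 4 arrays), Rpl30 (10.4 to 15.4) and Rps13 (1.1 to 14.5) did not and were not tested. Each of these 3 genes is also annotated to a bright probe set shared with its copies (Rpl28 with 3947.3 to 4366.8, Rpl30 with 4315.5 to 4700.2 and Rps13 with 3613.8 to 4113.5 over the 4 arrays), so their own dim signals do not give the abundance of the messenger.

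PhIP was compared with control to ask whether the messengers of the ribosome differed 2 days after exposure. Most members had slightly higher signals in PhIP, and a few large subunit genes had lower ones. Of the 39 tested members, 32 had a positive fold change and 7 a negative one, with a median of 0.089, from −0.26 to 0.25. Over all 18625 tested probe sets the median was −0.025, and 46.3% were positive. The large subunit had a median of 0.099 (26 genes) and the small subunit one of 0.086 (13 genes). None of the 39 passed an adjusted p of 0.05 in limma (lowest adjusted p = 0.156), where 0.0268% of all tested probe sets did. At an unadjusted limma p under 0.05, 6 members were higher in PhIP (15.4%, where 5.36% of all probe sets were) and 2 were lower (5.13%, where 7.61% were). All 8 belonged to the large subunit.

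Both PhIP pools lay above both control pools for 23 of the 39 members (59.0%) and below them for 4 (10.3%), where these shares were 19.8% and 26.0% over all tested probe sets. Other bright probe sets were also more often higher than lower. There were 196 other tested probe sets with a mean signal of at least 2500. They leave out those shared between a ribosomal protein gene and its copies, but include a second, plain probe set of Rpsa. Their median fold change was 0.060. Of them, 40.8% lay above without overlap, and 17.9% were higher at an unadjusted p under 0.05. The median fold change increased with brightness, from −0.127 in probe sets with a mean signal under 50 to 0.044 in the class next below 2500. The part of brightness in the members' values was not tested.

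**Figure D2:**
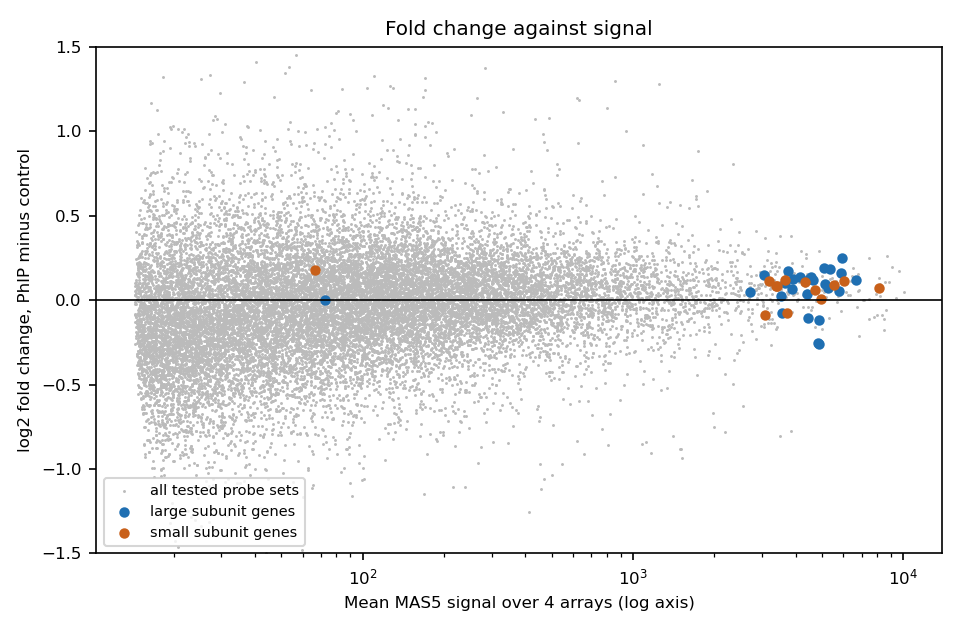
Fold change (log2, PhIP minus control) against mean MAS5 signal over the 4 arrays (log axis) for all 18625 tested probe sets in grey, with large subunit genes in blue and small subunit genes in orange. Of the grey points, 19 lie outside the vertical range shown. All but 2 tested members lie at the bright end, 30 above 0 and 7 below.

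Among large subunit genes, Rpl27a had the highest fold change. Its signals were 5408 and 5440.6 in the control pools against 6263.7 and 6662 in the PhIP pools. Both PhIP pools were thus higher by more than the distance between the pools of either group. The mean was 19.2% higher (5424 ± 23.1 to 6463 ± 282, SD, n = 2; log2 fold change 0.25 ± 0.06 (SE), limma adjusted p = 0.156). Without control 1 and without control 2 its adjusted p was 0.0201 and 0.0436, where only the PhIP pools gave the spread and the fold change was nearly the same (0.25 and 0.26). It did not pass without either PhIP pool.

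Rpl19, a large subunit protein that bridges to the small subunit, had 4676.6 and 4855.8 in the control pools against 5498.3 and 5382.7 in the PhIP pools (0.19 ± 0.06, adjusted p = 0.249). Rpl23, which binds Mdm2 as well as the ribosome, had 4866.8 and 5177.6 against 5848.8 and 5558.6 (0.18 ± 0.06, adjusted p = 0.297). Rpl7 had 3661.5 and 3374.2 against 3869.2 and 4066.8 (0.17 ± 0.07, adjusted p = 0.354). In all 3 genes the groups did not overlap. A second, dim probe set of Rpl7 had the opposite sign (61.6 and 45.2 against 26.2 and 46.6, −0.47 ± 0.26), with groups that overlapped.

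Rpl5 and Rpl11, which bind Mdm2 together with the 5S RNA, had positive fold changes, as did 82.1% of the tested members. Rpl5, a partner of the 5S RNA, had 5604.5 and 5500.4 in the control pools against 6290.8 and 6136.9 in the PhIP pools (0.16 ± 0.05, unadjusted p = 0.0191, limma adjusted p = 0.295). Its other partner, Rpl11, had 4618.7 and 4065.1 against 4763.9 and 4772.7 (0.14 ± 0.07, adjusted p = 0.474). For Rpl5 the 2 groups were well apart, whereas for Rpl11 control 1 lay much nearer to the PhIP pools than control 2 did. Without control 2 the fold change of Rpl11 was 0.046, and without control 1 it was 0.23 (adjusted p = 0.0251). Rpl26, which also binds the p53 messenger, stood at 0.12 ± 0.05 (adjusted p = 0.406). Mdm2 itself had 221.9 and 266.3 in the control pools against 281.2 and 288 in the PhIP pools (0.22 ± 0.13, adjusted p = 0.516), with no overlap, and its fold change was 0.092 without control 1 and 0.35 without control 2.

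Of the proteins of the catalytic core and the stalk, Rplp0, the base of the stalk that recruits elongation factors, had 3981.1 and 3921 in the control pools against 4315.3 and 4385.8 in the PhIP pools (0.14 ± 0.06, unadjusted p = 0.0473, limma adjusted p = 0.379). Rpl12, which lies beside the stalk, had 3619.8 and 3659.9 against 3449.4 and 3469.5 (−0.073 ± 0.061, adjusted p = 0.633). In the deposited scaling these neighbours in the ribosome thus stood on opposite sides, without overlap of the groups in either. Only Rplp0 had an unadjusted limma p under 0.05. After median centring or scaling to the hybridization controls only Rpl13a and Rpl37a were negative, so that Rpl12 then had the sign of Rplp0. Rpl4, which lines the peptide tunnel, had 3066.5 and 2727.1 against 3221.6 and 3187.4 (0.15 ± 0.08, adjusted p = 0.459), and its fold change was 0.063 without control 2. Rpl3, which reaches towards the peptidyl transferase centre, had 4623.5 and 4563.3 against 4352.9 and 4176.7 (−0.11 ± 0.06, adjusted p = 0.488). Rpl41, the smallest ribosomal protein, had 5444.5 and 5867.2 against 6162.5 and 5579.3 (0.053 ± 0.071), and its groups overlapped.

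The lowest fold changes were those of Rpl13a and Rpl37a. Rpl13a, which outside the ribosome takes part in silencing inflammatory messengers in myeloid cells, had 4794.9 and 5825.5 in the control pools against 4091 and 4771.3 in the PhIP pools (−0.26 ± 0.11, unadjusted p = 0.0438, limma adjusted p = 0.371). The groups did not overlap, but control 1 and PhIP 2 were close. Without control 2 the fold change was −0.12, and without control 1 it was −0.40 (adjusted p = 0.00839). Rpl37a, a zinc-binding protein of the large subunit, had 5070.7 and 5449.8 against 4265.5 and 4551.6 (−0.25 ± 0.07, unadjusted p = 0.00551, limma adjusted p = 0.195). Its mean signal was 16.2% lower in PhIP (5260 ± 268 to 4409 ± 202), its groups were well apart, and its fold change ranged from −0.31 to −0.20 when each array was left out. With arrays centred on their medians it was −0.12, and with arrays scaled to the hybridization controls it was −0.026, where that of Rpl13a was −0.12 and −0.030. Rpl21 had 4690.7 and 5443.2 against 4619.2 and 4710.2 (−0.12 ± 0.08, adjusted p = 0.566), where control 2 alone stood apart from the other arrays, and without it the fold change was −0.0080.

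**Figure D3:**
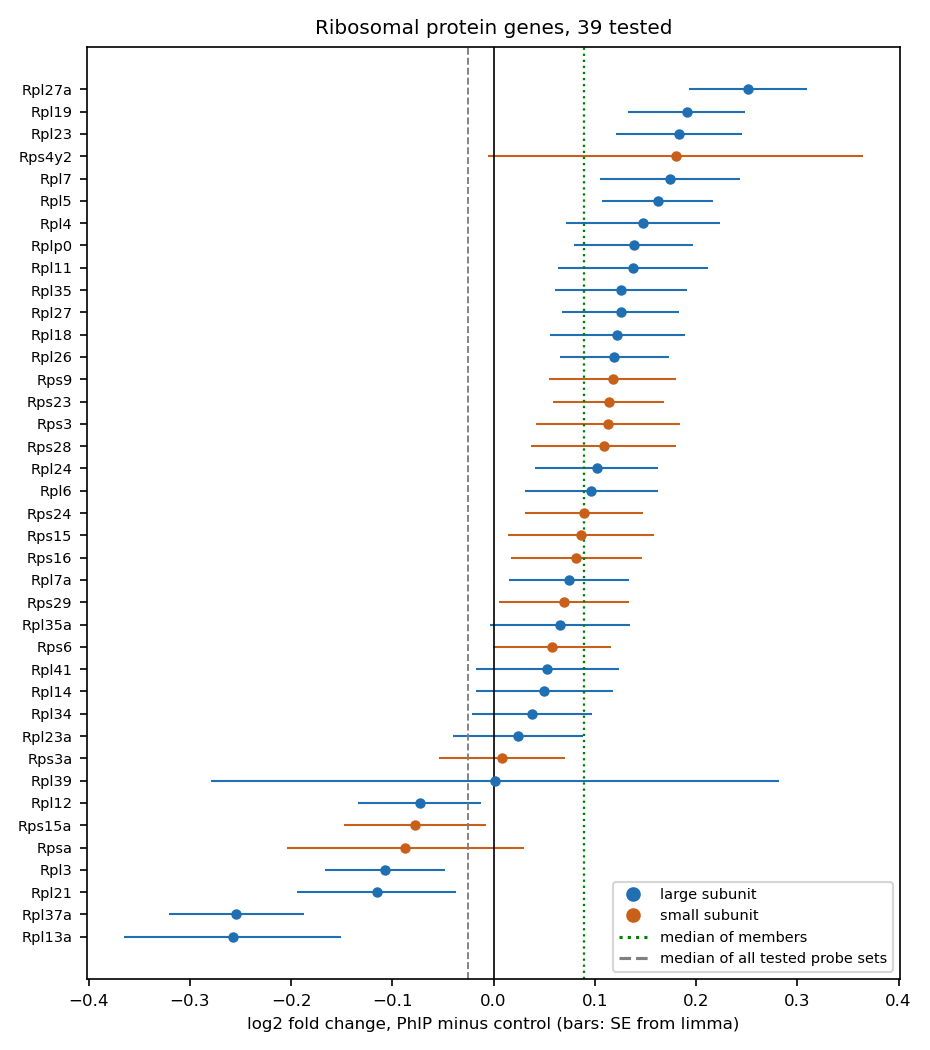
Log2 fold change (PhIP minus control, with SE from limma as bars) of the 39 tested ribosomal protein genes, large subunit in blue and small subunit in orange. The dotted line marks the median of the members (0.089) and the dashed line that of all tested probe sets (−0.025). Rpl13a and Rpl37a stand below the other genes, and the wide bars belong to the dim genes Rpl39 and Rps4y2.

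Small subunit genes were closer together, from −0.087 to 0.18 (SD over genes 0.077, against 0.129 in the large subunit), and 0 of 13 had an unadjusted p under 0.05 in limma or passed its adjusted p. The highest of the bright ones was Rps9, which helps keep the decoding accurate, with 3481.2 and 3485.4 in the control pools against 3867.8 and 3694.3 in the PhIP pools (0.12 ± 0.06, limma adjusted p = 0.472). Rps23 followed (0.11 ± 0.05, adjusted p = 0.424), then Rps3, which lines the messenger's entry and has been linked to DNA repair, with 3196.8 and 2919.3 against 3263 and 3347.9 (0.11 ± 0.07, adjusted p = 0.531). The groups did not overlap in these 3, but without control 2 Rps3 stood at 0.048. Rps28, at the messenger's exit, stood at 0.11 ± 0.07 with overlapping groups, and at 0.038 without control 1.

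Rps6, the substrate of the S6 kinases, had 4568.9 and 4650.6 in the control pools against 4870.6 and 4726 in the PhIP pools (0.058 ± 0.058, adjusted p = 0.691). This is a measure of its messenger only, and its phosphorylation was not measured. Rps24 had a positive fold change in its bright probe set (0.089 ± 0.058) and a negative one in a dim probe set (−0.13 ± 0.19). Rps3a stood at 0.0083 ± 0.062 and Rps15a at −0.078 ± 0.070, both with overlapping groups.

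Rpsa, a small subunit protein also known as the laminin receptor, was the lowest of its subunit in its brightest probe set. Its signals there were 2763.3 and 3616.7 in the control pools against 3016.6 and 2934.7 in the PhIP pools (−0.087 ± 0.117, limma adjusted p = 0.771). Control 2 was the high array, and without it the fold change was 0.11. A plain probe set of the same gene had 2694.1 and 2730.3 against 2785.2 and 2747.4 (0.028 ± 0.065). A probe set with the suffix _x_at had 796.8 and 972.7 against 839.6 and 819.9 (−0.085 ± 0.112). The direction of Rpsa therefore depended on the probe set, positive in the plain one and negative in those with a suffix (_s_at and _x_at).

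Setting each gene against the median of the 37 bright members on the same array removes any scaling of whole arrays. Rpl37a lay above that median by 0.20 and 0.32 in control and at −0.056 and 0.000 in PhIP. Rpl13a lay at 0.12 and 0.41 in control and at −0.12 and 0.068 in PhIP. Rpl27a lay at 0.29 and 0.32 in control and at 0.50 and 0.55 in PhIP, and Rpl19 at 0.082 and 0.15 against 0.31 and 0.24. Relative to the other members, PhIP minus control was −0.29 for Rpl13a, −0.29 for Rpl37a, 0.22 for Rpl27a and 0.16 for Rpl19. Of the remaining 33, the lowest was Rpl21 (−0.15) and the highest Rpl23 (0.15).

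**Figure D4:**
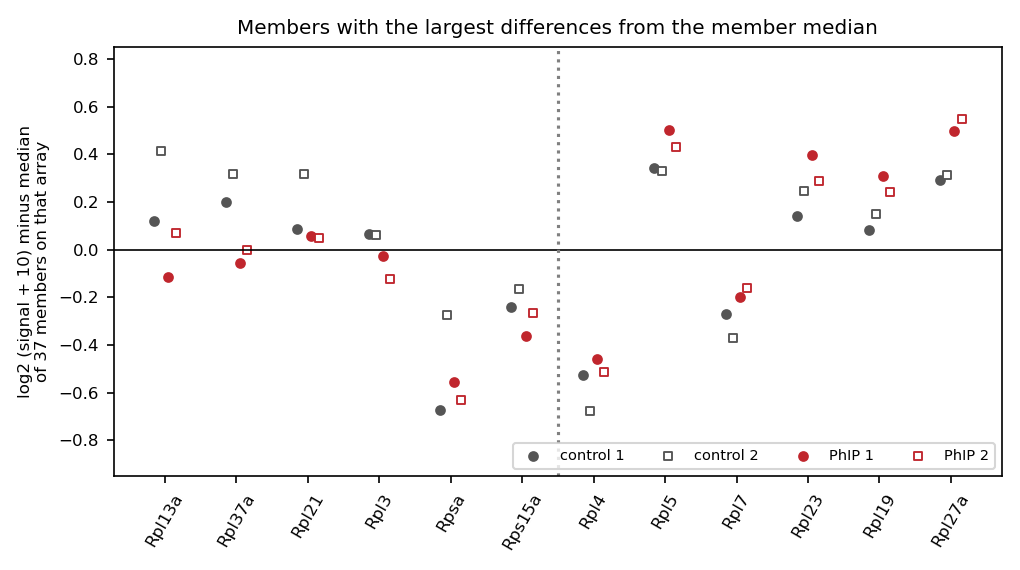
Difference between a gene's log2(signal + 10) and the median of the 37 bright ribosomal protein genes on the same array, for the 6 genes with the lowest PhIP values relative to control (left of the dotted line) and the 6 with the highest. Rpl37a is above 0 in both control pools and at or just below 0 in both PhIP pools, while Rpl27a is higher in both PhIP pools (0.50 and 0.55) than in both control pools (0.29 and 0.32).

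How many members count as higher depended on the scaling, while the medians remained positive under all 5 scalings. The median fold change was 0.089 as deposited, 0.038 with quantile normalization, 0.042 with cyclic loess, 0.225 when arrays were centred on their medians and 0.317 when they were scaled to the hybridization controls. The last 2 move the median of all tested probe sets from −0.025 to 0.111 and 0.202. They shift whole arrays, so that the distance of the members from that median could not change. With quantile normalization and cyclic loess, which can change it, the median of all tested probe sets was 0.002 and 0.007. The members stood nearer to it there than as deposited. At an unadjusted limma p under 0.05, 28 members were higher and 0 lower after median centring, where 13.5% of all probe sets were higher and 3.46% lower. After scaling to the hybridization controls these counts were again 28 and 0, where the shares were 20.8% and 1.92%. After quantile normalization 3 were higher and 3 lower (5.47% and 6.41% over all), and after cyclic loess 2 and 3 (5.68% and 6.36%). Rpl13a and Rpl37a kept a negative sign under all 5 scalings, but their size did not hold. Rpl13a went from −0.26 as deposited to −0.28 with quantile normalization, −0.31 with cyclic loess, −0.12 with median centring and −0.030 with the hybridization controls. Rpl37a went from −0.25 to −0.31, −0.31, −0.12 and −0.026 in the same order, so that with the hybridization controls both were smaller than the SE of the deposited scaling. Rpl27a was positive under all 5, from 0.18 with quantile normalization to 0.48 with the hybridization controls. No member passed an adjusted limma p of 0.05 under any of them, where 0.886% of all probe sets did with the hybridization controls, 0.0161% with cyclic loess and 0 with the other 2.

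**Figure D5:**
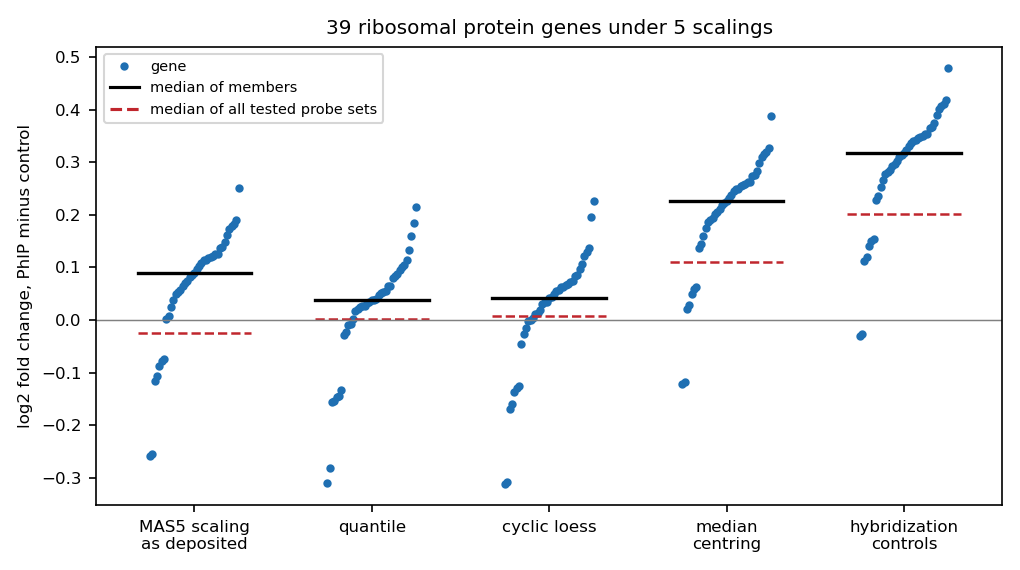
Log2 fold changes of the 39 tested ribosomal protein genes (blue points, sorted) under the deposited scaling and 4 others, with their median as a black line and the median of all tested probe sets as a dashed red line. The black line lies above the red line in each column, and the 2 lowest points are below 0 in each.

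The number of calls differed with the array left out. In such a fit 1 group has a single array, which is taken to vary like the pools of the other group, and the spread comes from that other group alone with 1 residual degree of freedom. The PhIP pools were closer together than the control pools, with a median absolute log2 difference over all tested probe sets of 0.136 against 0.209. Without control 1, 8 members passed an adjusted limma p of 0.05, where 12.5% of all tested probe sets did. Of these, Rpl27a (0.25 ± 0.06), Rpl7 (0.23 ± 0.06), Rpl4 (0.23 ± 0.06) and Rpl11 (0.23 ± 0.06) were higher and Rpl13a (−0.40 ± 0.08), Rpl37a (−0.31 ± 0.06), Rpsa (−0.28 ± 0.06) and Rpl21 (−0.22 ± 0.06) lower. The only control array in that fit was control 2, the one with the highest 3′ to 5′ ratios. Without control 2, 1 member passed, Rpl27a (0.26 ± 0.06), where 2.48% of all probe sets did. Without PhIP 1 or without PhIP 2, 0 passed the adjusted limma p, and neither did any other probe set. At an unadjusted p under 0.05, 1 member was higher and 0 lower without PhIP 1, where 2.12% and 3.77% of all tested probe sets were. Without PhIP 2, 0 members were higher and 2 lower, where 1.73% and 3.89% were. The part of RNA integrity in these values was not tested.

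The 33 probe sets shared between a ribosomal protein gene and its copies cannot be named to 1 gene. Their median fold change was 0.078, 27 were positive and 6 negative, and 0 passed limma's adjusted p (lowest adjusted p = 0.166). Both PhIP pools lay above both control pools in 19 (57.6%, against 19.8% of all tested and 40.8% of the other bright probe sets) and below them in 3 (9.09%, against 26.0% and 17.3%). The lowest, 1388313_at, had 2089.1 and 2131.5 in the control pools against 1685.3 and 1734.1 in the PhIP pools (−0.30 ± 0.07, unadjusted p = 0.0031, adjusted p = 0.166), and both PhIP pools lay well below both control pools. The highest, 1367582_at, had 2964.6 and 2717.1 against 3235.3 and 3293.5 (0.20 ± 0.07, adjusted p = 0.306).

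Other parts of the translation machinery were examined for genes chosen for their function. Mitochondrial ribosomal proteins, which serve the separate ribosome of the organelle, had a median of 0.060 over 73 genes, with 49 positive. At an unadjusted limma p under 0.05, 4 were higher (5.48%, where 5.36% of all tested probe sets were) and 0 lower, and 0 passed the adjustment. The largest statistics were those of Mrpl14 (98.5 and 106.6 against 146.3 and 137.7, 0.43 ± 0.14, adjusted p = 0.284), Mrpl13 (0.35 ± 0.12) and Mrps17 (0.30 ± 0.11). No difference between the cytosolic and mitochondrial sets was tested.

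Translation initiation factors had a median of 0.057 over 31 genes. Among them the helicase gene Eif4a1 stood at 0.22 ± 0.09, Eif1b at 0.38 ± 0.14 and Eif2s2, a subunit of the factor that brings the first transfer RNA, at −0.21 ± 0.07 (limma adjusted p = 0.36, 0.341 and 0.311). Elongation factors had a median of 0.036 over 9 genes. Eef1a1, which delivers transfer RNAs and whose messenger has a TOP start like those of the ribosomal proteins, had 6994.8 and 7777.7 in the control pools against 6275.8 and 6437.1 in the PhIP pools (−0.21 ± 0.07, adjusted p = 0.251). It stood at 0.013 after scaling to the hybridization controls. Eef2, which moves the ribosome along and also has a TOP messenger, had 3624.1 and 3573.9 against 4067.7 and 3793.4 (0.13 ± 0.07, adjusted p = 0.461). Eif5a, which helps the ribosome past proline runs, stood at 0.17 ± 0.07. Of the other genes with TOP messengers, 6 were measured with a median of 0.162, among them Naca, which shields the growing peptide (3055.8 and 2965.5 against 3439.9 and 3352.6, 0.17 ± 0.06, adjusted p = 0.327). Gas5, a host gene of small nucleolar RNAs, stood at 0.22 ± 0.13 and Vim, the filament gene of stromal cells, at −0.24 ± 0.13, which was −0.080 without control 1.

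Genes of ribosome assembly and ribosomal RNA processing had a median of −0.050 over 40 genes, 26 of them negative, where the median of all tested probe sets was −0.025. At an unadjusted limma p under 0.05, 3 were lower (7.5%, where 7.61% of all tested probe sets were) and 0 higher, and 0 passed the adjustment. Ltv1, an assembly factor of the small subunit, had 206.4 and 231.1 in the control pools against 139.6 and 133.5 in the PhIP pools (−0.64 ± 0.13, limma adjusted p = 0.124). Bysl, which acts on the same subunit, stood at −0.41 ± 0.15 and Fbl, the methyltransferase of ribosomal RNA, at −0.30 ± 0.12. Ncl, which encodes nucleolin, stood at 0.17 ± 0.09. RNA polymerase I and III genes had a median of 0.049 over 23 genes, with the polymerase I initiation factor Rrn3 at 0.27 ± 0.10, the shared subunit Polr1d at 0.22 ± 0.08 and the polymerase III repressor Maf1 at 0.27 ± 0.12.

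Regulators of translation had a median of −0.091 over 22 genes. Sesn2, a sestrin that restrains mTOR, had 89.4 and 86.6 in the control pools against 162.5 and 180.6 in the PhIP pools (0.89 ± 0.14, limma adjusted p = 0.0772). Mlst8, a subunit of the mTOR complexes, stood at −0.49 ± 0.22, the kinase gene Eif2ak4 at −0.37 ± 0.16 and Myc, an activator of ribosome production, at −0.11 ± 0.16. None of these 4 passed an adjusted p of 0.05. Of the ribosomal protein paralogues outside the set, Rps27l, a p53 target in other tissues, had 369.7 and 323.7 against 398.1 and 336.3 (0.079 ± 0.131), with overlapping groups. Rpl7l1 stood at 0.0075 ± 0.106 and Rpl26l1 at 0.25 ± 0.24, the latter with 0.018 without control 1 and 0.48 without control 2.

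Markers of cell types differed between the same groups. In bulk tissue, a change in the number of cells of one type and a change in RNA per cell cannot be told apart. Of 12 luminal epithelial markers, 10 were tested, with a summed signal of 28830 to 30772 in control and 33361 to 34066 in PhIP. At an unadjusted limma p under 0.05, 7 of them were higher, where 5.36% of all tested probe sets were. The 8 smooth muscle markers summed to 6788 to 6815 in control and 4071 to 4134 in PhIP. All 8 were lower at that p, where 7.61% of all tested probe sets were. Summed skeletal muscle signal was 916.2 and 1681.7 in the control pools against 511.9 and 434.1 in the PhIP pools, and summed leukocyte signal was 5243 to 5339 against 6612 to 6623. The sums were also lower in both PhIP pools than in both control pools for endothelial markers (206.3 and 209.1 against 289.9 and 301.2), adipocyte markers (95.1 and 163 against 212.1 and 314.8) and red blood cell markers (920.7 and 1383.2 against 1824.2 and 2628.5). For the 4 basal epithelial markers the sums overlapped (811.5 to 906.6 in PhIP and 888.9 to 919.3 in control). The part of these differences in the values of the ribosomal protein genes was not tested.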

How the data were processed

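Gene expression was measured on 4 rat Affymetrix arrays with 31099 probe sets. The deposited values are intensities (MAS5 signals on a linear scale), made by the authors with MAS5, per the submitters' processing notes; version, scaling target, detection calls: not given in the sources used here. The depth of arrays is not defined as for reads, and their number limits the precision. The annotation gave 20832 probe sets 1 symbol, 436 several and 9831 none. Of the 42 members, 40 matched RefSeq (GRCr8) by Entrez identifier, with 0 symbols changed, and promoters were matched by symbol. The 57 control probe sets were left out. Signals were analysed as log2(signal + 10), so that changes of dim genes are understated. Probe sets with a mean log2 value above the 40th percentile (18625) were tested with limma 3.58.1 (R 4.3.3; lmFit, eBayes with trend, two-sided, Benjamini-Hochberg over all of them, 2 residual and 5.67 prior degrees of freedom). The step was tested on simulated data. With 2 arrays against 2, an exact permutation test cannot go below p = 0.333. Named members were, in each subunit, the 6 highest and 4 lowest fold changes, the 4 brightest and 4 dimmest, genes whose probe sets differed in sign, and a set chosen for function, of which those measured are given; Rpl12, Rpl39 and the extreme unnamed probe sets were added after their values were seen. Of each companion list, up to 3 genes with the largest statistic and a functional set were named. Members, lists and alternatives were chosen with earlier results of these data known. Since pools hold 2 rats, their spread is smaller than that between single animals. Plots were drawn with matplotlib 3.10.9.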

Additional observations from a re-analysis of the deposited data

How the results depend on the processing

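Other added constants left the counts of the members above or below a threshold as they were. The number of all probe sets past an adjusted limma p of 0.05, 5 as reported, was 22 with a constant of 20, 44 with the filter at the 60th percentile, 52 with robust eBayes, 35 with the replicate block, 165 after scaling to the hybridization controls, 3 after cyclic loess, and 0 with eBayes without trend, median centring, quantile normalization or no filter; at an adjusted p under 0.1 it was 143. When single arrays were left out it ranged from 0 to 2334, the number of members past the threshold from 0 to 8, members higher at an unadjusted p under 0.05 from 0 to 11 and lower from 0 to 4, and the median of the members from 0.065 to 0.108 (small subunit 0.052 to 0.106). The number of members higher at an unadjusted p under 0.05, 6 as reported, was 2 with no filter, 3 after quantile normalization, 2 after cyclic loess, 28 after median centring or scaling to the hybridization controls, and 0 with eBayes without trend. The number lower, 2 as reported, was 1 with no filter, robust eBayes or plain probe sets alone, and 0 after median centring, scaling to the hybridization controls or eBayes without trend. After quantile normalization, cyclic loess, median centring and hybridization control scaling, in this order, the median log2 fold change of ribosomal protein genes was 0.038, 0.042, 0.225 and 0.317, the median log2 fold change of large subunit genes was 0.033, 0.047, 0.236 and 0.327, and the median log2 fold change of small subunit genes was 0.039, 0.034, 0.223 and 0.314.

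Signs were followed for the genes named by the rule above and not for every member. Of the 39 tested members, 7 were negative as deposited. There were 2 after median centring or hybridization control scaling, and 11 after quantile normalization or cyclic loess. With the first 2 of these scalings the sign turned for Rpl12, which is outside that rule. It also turned, in the same order, for Rpl21 (0.021 and 0.113), Rpl3 (0.029 and 0.121) and Rps15a (0.058 and 0.150). The sign turned as well for Rpsa (0.049 and 0.141) and Myc (0.028 and 0.119). After hybridization control scaling alone it turned for Eef1a1 (0.013) and Eif2s2 (0.019). After quantile normalization and cyclic loess it turned for Rpl41 (−0.022 and −0.002), Rps3a (−0.009 and −0.046) and Rpl7l1 (−0.025 and −0.018). When a gene's probe sets were averaged it turned for Rpl7 (−0.150) and Rps24 (−0.021), and with plain probe sets alone for Rps24 (−0.131) and Rpsa (0.028). Leaving out single arrays gave ranges across 0 for Rpl41 (−0.019 to 0.125), Rps3a (−0.036 to 0.053), Rpsa (−0.281 to 0.106), Myc (−0.254 to 0.036), Rpl7l1 (−0.042 to 0.057) and Rps27l (−0.040 to 0.197). The cause of these differences was not tested.

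The labels do not say whether equal replicate numbers pair the pools. Deviations of same-numbered pools correlated at −0.056 over the tested probe sets, which cannot decide this with 2 pools per group. With the replicate block 4 members were higher and 2 lower at an unadjusted p under 0.05, and 0 passed the adjustment.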
